A study of Homo sapiens with 7 samples.

Results

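The ERK pathway feedback and output genes are transcripts whose level is read as a measure of signalling through the kinases ERK1 and ERK2. They were chosen by symbol, and all 10 of the 10 symbols were found, each under 1 Ensembl identifier, among 33117 listed genes. The members are DUSP4, DUSP5, DUSP6, SPRY2, SPRY4, SPRED1, SPRED2, ETV4, ETV5 and PHLDA1. They were followed by RNA sequencing in 769-P, a human line established from a clear cell carcinoma of the kidney, grown in medium with serum and no stated treatment. There were 2 Lat-M2 libraries, 2 Lat-M1 libraries and 3 PA libraries. The labels call Lat-M latent metastatic cells, do not expand PA, and do not say how the Lat-M cells were obtained, what their first number stands for or whether replicates were separate cultures. Each p-value therefore rests on library-to-library spread alone, possibly only technical, and all groups come from 1 cell line. Values are TPM, a transcript abundance that is corrected for gene length and adds up to the same total in each library, so that levels of different genes can be compared. Read counts cannot be had from TPM, and the depth behind each value is unknown.

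ERK signalling starts at receptor tyrosine kinases, passes through RAS, RAF and MEK, and ends with ERK entering the nucleus. ERK activity raises the transcripts of its own inhibitors, so the pathway damps itself at several levels: Sprouty and SPRED proteins act near RAS, and dual-specificity phosphatases remove the phosphates from ERK. ETV4, ETV5 and many of these inhibitors are repressed by the DNA-binding protein CIC, which ERK activity inactivates. Several members are in common use as transcript readouts of the pathway in tumour cells.

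Across the libraries, SPRED1 and ETV5 were higher in both Lat-M2 and Lat-M1 than in PA, DUSP6 was higher in Lat-M2 than in either other group, and PHLDA1 was lower in Lat-M1 than in either other group. The remaining tested members had no call against PA on the deposited values, except SPRY2, lower in Lat-M1. Structural RNAs of the signal recognition particle, 7SK and RNase MRP took 22.9 and 27.7% of all TPM in the Lat-M2 libraries, 21.9 and 18.6% in the Lat-M1 libraries and 29.5 to 31.8% in the PA libraries. The median log2 fold change of the 16724 tested genes was 0.16 in Lat-M1 against PA, 0.14 in Lat-M2 against PA and -0.011 in Lat-M2 against Lat-M1. With the 4 structural RNAs left out and TPM brought back to the same total, the medians were -0.015, 0.046 and 0.076 in that order. That fit tested 17755 genes, and the cause of the shift was not tested. Calls are given also after dividing each library by a median ratio size factor. This moves the medians of the 16724 genes to 0.0042, -0.00054 and 0.011, and such values are called scaled. Libraries of 1 group correlated across tested genes, which are not independent replicates, at a Pearson's r of 0.9834 or more. Between groups, r was 0.9745 to 0.9779 for Lat-M2 with PA and 0.9383 to 0.9445 for Lat-M1 with PA. For Lat-M2 with Lat-M1 it was 0.9427 to 0.9466. Libraries were made with either of 2 kits, and since the labels do not say which kit made which library, a kit difference and a group difference cannot be told apart. PAX8, a renal lineage factor, was at 65.6 to 87.9 TPM in the 7 libraries, whereas CA9, a marker of this carcinoma, was at 0 in 5 of them and at most 0.156 TPM. Other markers of the 11 in the renal list moved with the groups: in Lat-M1 against PA limma called 2 of 8 tested higher (PAX8, CDH2) and 3 lower (KRT8, EPCAM, LHX1), and in Lat-M2 against PA 3 higher (KRT8, KRT18, EPCAM) and 1 lower (CDH6). Lat-M2 against Lat-M1 had 4 higher (KRT8, KRT18, EPCAM, LHX1) and 2 lower (CDH2, CDH6), and the part of these shifts in the results was not tested. Of the endothelial markers the 4 listed genes together reached at most 0.0853 TPM in any library. Of 8 leukocyte markers 4 were listed: PTPRC reached at most 0.0121 TPM, LYZ 0.0493 TPM and CD14 0.261 TPM. The fourth, CD68, was at 41.8 and 39.7 TPM in Lat-M2 and averaged 14.8 TPM in Lat-M1 and 46.7 TPM in PA. The 8 fibroblast and pericyte markers summed to 6.93 to 8.87 TPM in Lat-M2, 21.9 to 23.8 TPM in Lat-M1 and 5.18 to 5.54 TPM in PA. COL1A1 made up most of the Lat-M1 sum, while COL1A2 was at 0 in both Lat-M1 libraries. RGS5, the other tested marker of the list, was lower in Lat-M1, at 2.02 TPM against 3.71 TPM in PA (log2 fold change -0.64, limma adjusted p = 0.00483). The part of such cells in the results was not tested. In bulk RNA, fewer cells expressing a gene and less RNA per cell cannot be told apart.

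**Figure D1:**
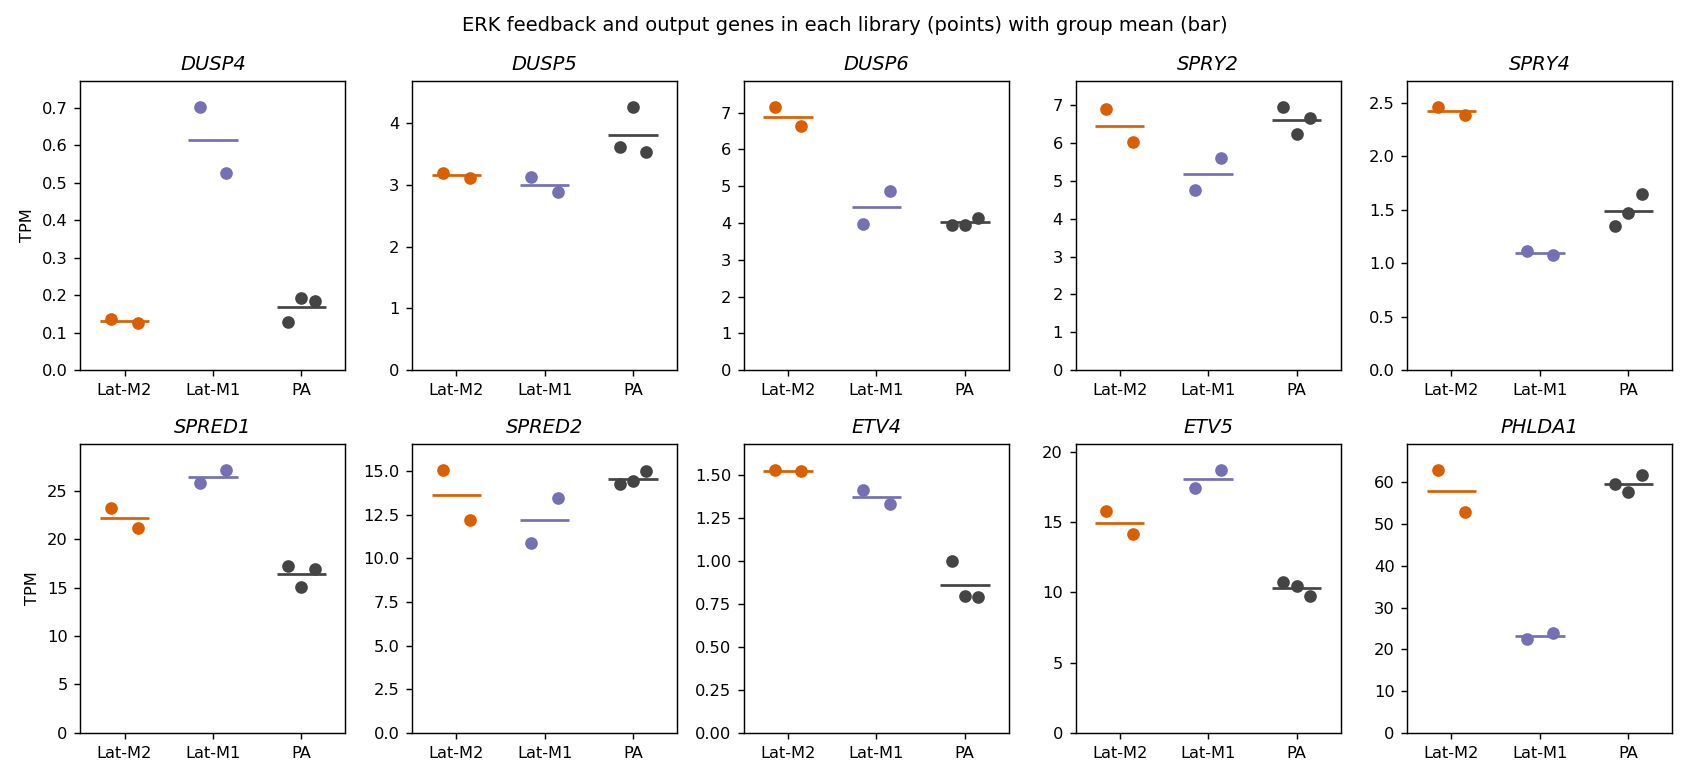
TPM of each of the 10 ERK feedback and output genes (vertical axes, each from 0) in the 2 Lat-M2, 2 Lat-M1 and 3 PA libraries; points are libraries and bars are group means. SPRED1 and ETV5 lie higher in both Lat-M groups than in PA, DUSP6 and SPRY4 are highest in Lat-M2, and PHLDA1 is at 22.4 and 23.9 TPM in Lat-M1 while every other library is at 52.8 TPM or more.

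Among the phosphatases, DUSP6, a cytoplasmic enzyme selective for ERK, stood at 7.14 and 6.63 TPM in Lat-M2, 3.98 and 4.86 TPM in Lat-M1, and 3.95, 3.95 and 4.15 TPM in PA. Both Lat-M2 libraries lay above the other 5, and Lat-M1 overlapped PA. The mean was 1.72-fold higher in Lat-M2 than in PA (log2 fold change 0.65 with an SE of 0.10, limma adjusted p = 0.0107; SEs follow ± for fold changes below), and 1.56-fold higher than in Lat-M1 (0.54 ± 0.11, limma adjusted p = 0.00814). Scaled values kept both calls (limma adjusted p = 0.00838 and 0.00223). Without Lat-M2 replicate 1 the first call ended (limma adjusted p = 0.0781), and without Lat-M1 replicate 1 the second did (limma adjusted p = 0.0562). In Lat-M1 against PA DUSP6 had a log2 fold change of 0.11 ± 0.10 (limma adjusted p = 0.42), which was -0.036 when scaled.

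DUSP5, a nuclear phosphatase selective for ERK, was at 3.20 and 3.11 TPM in Lat-M2, 3.13 and 2.88 TPM in Lat-M1, and 3.62, 4.26 and 3.54 TPM in PA. The 4 Lat-M libraries lay below the 3 PA libraries, with a gap of less than 1 TPM, and Lat-M2 overlapped Lat-M1. Against PA the log2 fold change was -0.21 ± 0.11 for Lat-M2 (limma adjusted p = 0.244) and -0.26 ± 0.11 for Lat-M1 (limma adjusted p = 0.0998), and scaling gave the second a call (-0.40 ± 0.11, limma adjusted p = 0.0272). DUSP5P1, a pseudogene of DUSP5 whose reads may be hard to tell from those of the gene, was at 0.320 and 0.578 TPM in Lat-M2, 0.382 and 0.517 TPM in Lat-M1, and 0.247 to 0.376 TPM in PA.

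DUSP4, a nuclear phosphatase acting on ERK and related kinases, was the least abundant member in each group. It stood at 0.136 and 0.126 TPM in Lat-M2, 0.701 and 0.526 TPM in Lat-M1, and 0.127, 0.192 and 0.184 TPM in PA. Both Lat-M1 libraries lay above the other 5, the mean being 3.66-fold that of PA, and Lat-M2 overlapped PA. With a mean under 1 TPM the gene fell below the minimum for testing. In a fit without that minimum its log2 fold change, strongly compressed by the 1 TPM that is added before taking logs, was 0.46 ± 0.091 in Lat-M1 against PA (limma adjusted p = 0.0143), -0.51 ± 0.099 in Lat-M2 against Lat-M1 (limma adjusted p = 0.0178) and -0.046 ± 0.091 in Lat-M2 against PA (limma adjusted p = 0.84).

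The 2 Sprouty genes, whose proteins restrain RAS activation downstream of receptor tyrosine kinases, differed from each other. SPRY4 was at 2.46 and 2.38 TPM in Lat-M2, 1.11 and 1.07 TPM in Lat-M1, and 1.35, 1.47 and 1.65 TPM in PA. No groups overlapped: Lat-M2 was highest, PA in between and Lat-M1 lowest. Between the Lat-M groups the mean was 2.22-fold higher in Lat-M2, a log2 fold change of 0.71 ± 0.15 (limma adjusted p = 0.0105, and 0.00566 scaled), a call that ended without Lat-M1 replicate 2 (limma adjusted p = 0.0531). Neither comparison with PA passed the test: the log2 fold change was 0.46 ± 0.14 for Lat-M2 (limma adjusted p = 0.0684) and -0.25 ± 0.14 for Lat-M1 (limma adjusted p = 0.192). At such levels the added 1 TPM understates changes.

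SPRY2 was at 6.88 and 6.03 TPM in Lat-M2, 4.75 and 5.60 TPM in Lat-M1, and 6.94, 6.24 and 6.65 TPM in PA. Lat-M1 lay below the other groups, and Lat-M2 overlapped PA. SPRY2 was lower in Lat-M1 than in PA, with a log2 fold change of -0.30 ± 0.10 (limma adjusted p = 0.0432), and scaling made this -0.46 ± 0.075 (limma adjusted p = 0.00328). On unscaled values the call did not survive leaving out any 1 of PA replicates 1, 2 and 3 (limma adjusted p = 0.105, 0.0591 and 0.0973 in that order). It also ended without Lat-M1 replicate 1 or 2 (log2 fold changes -0.20 and -0.40). The same held without the minimum level (limma adjusted p = 0.0766) and with the replicate number as a block (limma adjusted p = 0.145). Lat-M2 against PA gave -0.031 ± 0.10 (limma adjusted p = 0.857), and Lat-M2 against Lat-M1 gave 0.27 ± 0.11 (limma adjusted p = 0.0951), which was called when scaled (0.29 ± 0.082, limma adjusted p = 0.0293).

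SPRED1 and SPRED2, relatives of the Sprouty proteins that bring the RAS inhibitor neurofibromin to the membrane, also parted. SPRED1 was at 23.2 and 21.1 TPM in Lat-M2, 25.8 and 27.1 TPM in Lat-M1, and 17.2, 15.1 and 16.9 TPM in PA. Every Lat-M library lay above every PA library, and Lat-M2 lay below Lat-M1. The log2 fold change was 0.66 ± 0.077 in Lat-M1 against PA (limma adjusted p = 0.000496), a call held in all 15 alternatives run. In Lat-M2 against PA it was 0.41 ± 0.077 (limma adjusted p = 0.018). That call ended without Lat-M2 replicate 1 (log2 fold change 0.35) and with the replicate number as a block (limma adjusted p = 0.0515). Scaling kept both (0.49 and 0.27) and added a call in Lat-M2 against Lat-M1 (-0.22 ± 0.062, limma adjusted p = 0.0279; -0.25 ± 0.085 and 0.0586 unscaled).

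SPRED2 was at 15.1 and 12.2 TPM in Lat-M2, 10.9 and 13.5 TPM in Lat-M1, and 14.3, 14.4 and 15 TPM in PA. The Lat-M2 libraries spanned the PA range, and both Lat-M1 libraries were below it. Unscaled, no comparison was called: the log2 fold change was -0.25 ± 0.11 in Lat-M1 against PA (limma adjusted p = 0.119), -0.095 ± 0.11 in Lat-M2 against PA (0.593 by limma) and 0.15 ± 0.12 in Lat-M2 against Lat-M1 (0.386 by limma). Scaled, SPRED2 was lower in Lat-M1 than in PA (-0.41 ± 0.078, limma adjusted p = 0.00591).

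Promoter sequence is shown for SPRY2 and SPRED2, which were both lower in Lat-M1 than in PA on scaled values, because only for these members did a RefSeq window (GRCh38.p14) before the gene start lie mainly outside GENCODE v29 exons of its strand. Both read 5′ to 3′ on the gene's strand, the minus strand, and the SPRED2 window leaves off the 38 exonic bases nearest the start. Capitals mark CCGGAA, a core motif of ETS factors such as ETV4 and ETV5, searched on both strands.
SPRY2, chr13:80341127-80341376: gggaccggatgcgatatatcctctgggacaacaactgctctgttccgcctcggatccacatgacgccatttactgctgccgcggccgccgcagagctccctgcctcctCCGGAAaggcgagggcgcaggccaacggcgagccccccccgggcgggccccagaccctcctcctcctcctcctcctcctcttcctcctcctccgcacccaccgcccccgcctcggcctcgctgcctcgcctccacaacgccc
SPRED2, chr2:65432638-65432849: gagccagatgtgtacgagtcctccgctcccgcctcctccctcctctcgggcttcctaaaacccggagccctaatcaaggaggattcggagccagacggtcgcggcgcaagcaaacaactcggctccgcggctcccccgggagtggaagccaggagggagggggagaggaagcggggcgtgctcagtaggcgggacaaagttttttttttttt
RefSeq windows were at hand for 6 of the 10 members (9 windows of 250 bases, several for SPRY2 and SPRED2). CCGGAA was found in 1 SPRY2 window, 142 to 137 bases before the start, and on the other strand in the PHLDA1 window, 89 to 84 bases before it. Of all 35116 windows searched, 14.5% held this motif. TGAATGNA, the form of CIC's binding site searched, was in no member window and in 3.25% of all windows, and TGAGTCA, the AP-1 motif, was in no member window and in 4.2% of all. CCGGAA was the only motif matched, so no matches overlapped, and a match describes letters only.

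The ETS factors ETV4 and ETV5, activators of the PEA3 subfamily, both lay above PA in every Lat-M library. ETV5 was at 15.8 and 14.2 TPM in Lat-M2, 17.5 and 18.7 TPM in Lat-M1, and 10.7, 10.5 and 9.73 TPM in PA. No groups overlapped. Its log2 fold change was 0.76 ± 0.077 in Lat-M1 against PA (limma adjusted p = 0.000255, past the threshold in all 15 alternatives) and 0.50 ± 0.077 in Lat-M2 against PA (limma adjusted p = 0.0105, lost without Lat-M2 replicate 1 at 0.0666 by limma), and scaled values kept both calls (0.59 and 0.36). ETV5 was lower in Lat-M2 than in Lat-M1 at the edge of the test (-0.26 ± 0.084, limma adjusted p = 0.0496), and 12 of 15 alternatives ended this call (highest limma adjusted p = 0.225).

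ETV4 was far less abundant, at 1.53 and 1.52 TPM in Lat-M2, 1.41 and 1.33 TPM in Lat-M1, and 0.997, 0.796 and 0.789 TPM in PA. Here too no groups overlapped, with Lat-M2 the highest. The mean was 1.77-fold that of PA in Lat-M2 and 1.59-fold in Lat-M1. Neither passed the test (log2 fold change 0.44 ± 0.16, limma adjusted p = 0.103, and 0.35 ± 0.16, limma adjusted p = 0.115), nor did Lat-M2 against Lat-M1 (0.092 ± 0.17, limma adjusted p = 0.718), and no alternative changed that.

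In the annotation used here, DGKG, which encodes a diacylglycerol kinase, overlaps ETV5 on the same strand. DGKG was at 2.37 and 2.09 TPM in Lat-M2, 4.73 and 6.11 TPM in Lat-M1, and 1.55 to 1.70 TPM in PA. It was higher in Lat-M1 than in PA (log2 fold change 1.27 ± 0.13, limma adjusted p = 0.00031) and lower in Lat-M2 than in Lat-M1 (-0.98 ± 0.15, limma adjusted p = 0.00211). Its groups had the same order as those of ETV5, but unlike ETV5 it was not called in Lat-M2 against PA (0.28 ± 0.13, limma adjusted p = 0.191). How reads of the overlap were assigned is not stated, and the part of the overlap in the ETV5 values was not tested. DHX8, a helicase gene on the strand opposite to ETV4, was at 24.6 to 29.6 TPM in all libraries and was called in no comparison (limma adjusted p = 0.42 for Lat-M1 against PA and 0.182 for Lat-M2 against PA). The antisense genes RP11-290L1.3 and RP11-290L1.2 over PHLDA1 and AC005592.2 over SPRY4 were below 0.8 TPM in every library, and AC012370.2, within SPRED2, was at 1.15 to 4.46 TPM.

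PHLDA1, a pleckstrin homology-like protein induced by mitogens, was the most abundant member in Lat-M2 and PA. It stood at 62.9 and 52.8 TPM in Lat-M2, 22.4 and 23.9 TPM in Lat-M1, and 59.6, 57.7 and 61.7 TPM in PA. Both Lat-M1 libraries lay far below the other 5, and the Lat-M2 libraries spanned the PA range. In Lat-M1 the mean was 0.388 times that of PA, a log2 fold change of -1.33 ± 0.083 (limma adjusted p = 2.37e-05). Lat-M2 was 2.5-fold higher than Lat-M1 (1.28 ± 0.090, limma adjusted p = 5.99e-05). Both calls held in all 15 alternatives. Lat-M2 against PA gave -0.048 ± 0.083 (limma adjusted p = 0.716), which scaling turned into a call of lower expression (-0.20 ± 0.045, limma adjusted p = 0.0342). CD68, the 1 leukocyte marker above 1 TPM, had the same order of groups: the 4 listed leukocyte markers summed to 39.7 to 42.1 TPM in Lat-M2, 14.3 to 15.5 TPM in Lat-M1 and 45.6 to 48.3 TPM in PA, almost all of it CD68, and its part in the result was not tested.

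PHLDA1 made up 45.5 and 44.0% of the summed TPM of the 10 members in Lat-M2, 24.4 and 24.0% in Lat-M1, and 50.2 to 51.3% in PA. The sum itself was 138 and 120.2 TPM in Lat-M2, 91.6 and 99.5 TPM in Lat-M1, and 119, 115 and 120.2 TPM in PA, so that Lat-M1 had the lowest sum while holding the highest SPRED1 and ETV5. In order of mean TPM, PA ran PHLDA1, SPRED1, SPRED2, ETV5, SPRY2, DUSP6, DUSP5, SPRY4, ETV4 and DUSP4, and only DUSP6 and DUSP5 overlapped as neighbours. Lat-M1 put SPRED1 first, at 26.5 TPM against 23.1 TPM for PHLDA1, and ETV5 ahead of SPRED2 (18.1 and 12.2 TPM), with SPRY2 and DUSP6 overlapping. Lat-M2 kept PHLDA1 first (57.9 TPM) and SPRED1 second (22.2 TPM), with ETV5 overlapping SPRED2 and DUSP6 overlapping SPRY2.

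In Lat-M1 against PA the members' share of calls was near that of all genes. Of the 9 tested members, 2 were higher (SPRED1, ETV5) and 2 lower (SPRY2, PHLDA1), where 44.8% of all tested genes were called, 33.2% higher and 11.6% lower. Their median log2 fold change was -0.25, beside 0.16 over all tested genes. On scaled values 2 members were higher and 4 lower, with DUSP5 and SPRED2 added to SPRY2 and PHLDA1, where 47% of all genes were called, 24% higher and 23% lower. The 2 Lat-M1 and 3 PA libraries did not overlap for 9 of the 10 members, with 4 above PA, 5 below and DUSP6 overlapping. Over all tested genes 68% did not overlap, 48.9% lying above and 19% below.

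For Lat-M2 beside PA, the 9 tested members had 3 higher (DUSP6, SPRED1, ETV5) and 0 lower, where 14.9% of all tested genes were called, 12.7% higher and 2.24% lower. Limma gave 5 of the 9 an unadjusted p under 0.05, and 5515 of all 16724 tested genes. The median was 0.41, beside 0.14 over all tested genes. Scaled, the same 3 were higher and PHLDA1 was lower, where 15.9% of all genes were called, 7.47% higher and 8.41% lower. Groups did not overlap for 6 of 10 members, 5 above PA and 1 below, beside 49.8% of all tested genes, 42.2% above and 7.59% below. Without Lat-M2 replicate 1, limma called 0 members, with 4 of 9 at an unadjusted p under 0.05, beside 3746 of 16724 genes, and over all genes the count fell to 506, against 2494 with it. Both comparisons with PA use the same 3 PA libraries.

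In Lat-M2 against Lat-M1, 3 of 9 were higher (DUSP6, SPRY4, PHLDA1) and 1 lower (ETV5), where 36% of all tested genes were called, 16% higher and 20.1% lower, and the median was 0.15, beside -0.011. Scaled values called 4 higher (SPRY2 added) and 2 lower (SPRED1 added), where 44.2% of all genes were called, 21.6% higher and 22.6% lower. Groups did not overlap for 8 of 10, 5 above and 3 below, beside 68.3% of all tested genes, 32.8% above and 35.6% below.

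**Figure D2:**
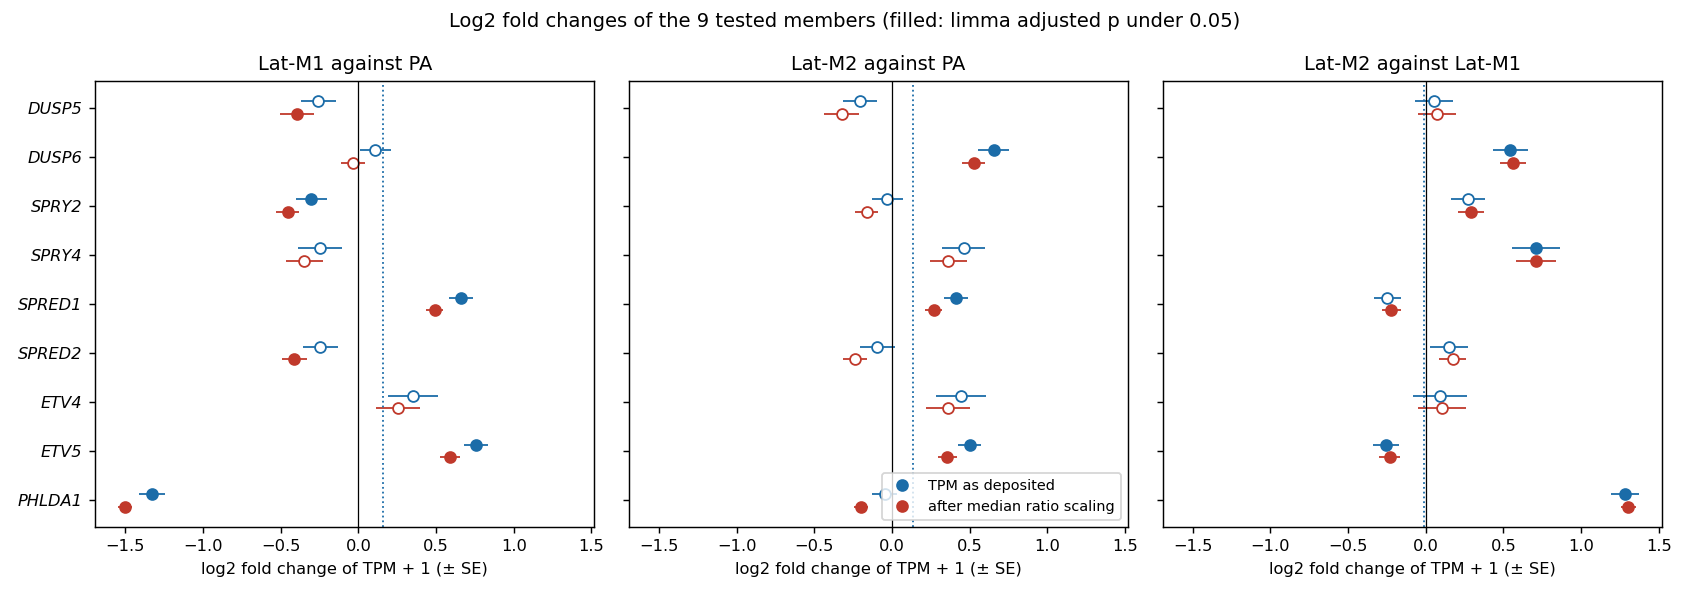
Log2 fold changes of TPM + 1 with standard errors (horizontal axes) for the 9 tested members in each comparison, on deposited TPM (blue) and after median ratio scaling (red); filled points passed the limma test and the dotted line is the median of all tested genes before scaling. SPRED1 and ETV5 are to the right in both comparisons with PA, and PHLDA1 is at -1.33 in Lat-M1 against PA but -0.048 in Lat-M2 against PA.

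Ratios within a library do not depend on how the library is scaled. SPRY4 over SPRY2 was 0.357 and 0.395 in Lat-M2, 0.234 and 0.192 in Lat-M1, and 0.195, 0.235 and 0.248 in PA, so that Lat-M2 alone stood apart. DUSP6 over DUSP5 was 2.23 and 2.13 in Lat-M2, 1.27 and 1.69 in Lat-M1, and 1.09, 0.926 and 1.17 in PA, with no overlap of groups. SPRED1 over SPRED2 was 1.54 and 1.73 in Lat-M2, 2.37 and 2.01 in Lat-M1, and 1.20, 1.05 and 1.13 in PA, again without overlap but with Lat-M1 highest. ETV5 over ETV4 was 10.3 and 9.30 in Lat-M2, 12.4 and 14.1 in Lat-M1, and 10.7, 13.1 and 12.3 in PA, where Lat-M2 lay below both other groups. These pairs were chosen with the members' values known and carry no test.

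**Figure D3:**
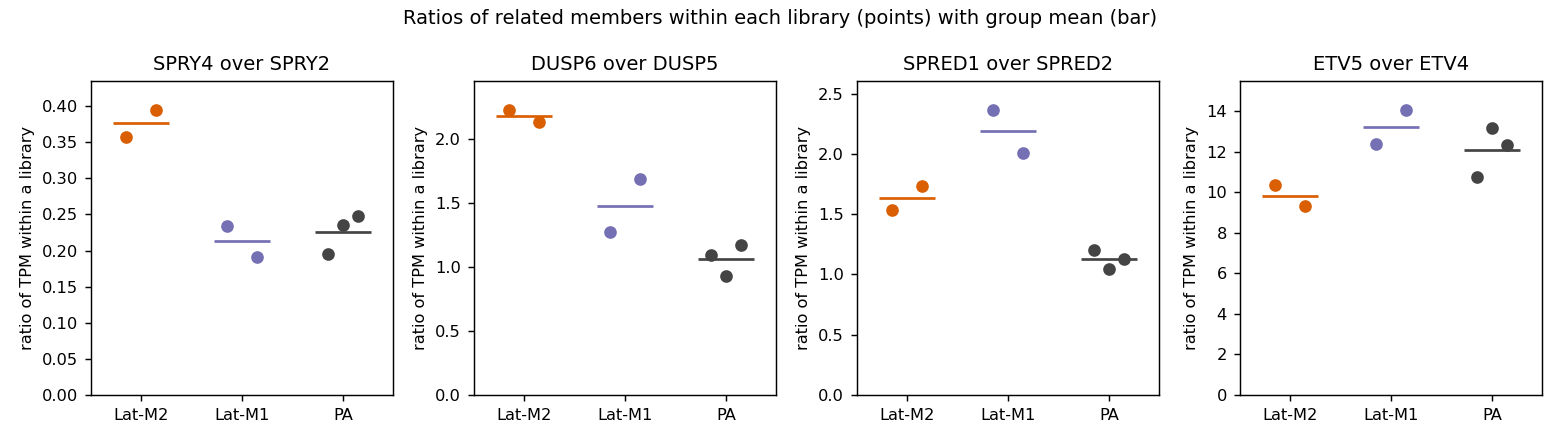
Ratio of the TPM of 2 related members within each library (vertical axes from 0) in the 2 Lat-M2, 2 Lat-M1 and 3 PA libraries; points are libraries and bars group means. SPRY4 over SPRY2 is raised in Lat-M2, where the 2 libraries are at 0.357 and 0.395, while SPRED1 over SPRED2 is above PA in all 4 Lat-M libraries.

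The other genes of the pathway were taken from lists by role. Among dual-specificity phosphatases outside the members, 6 of 9 tested were higher in Lat-M1 than in PA and 0 lower, with a median log2 fold change of 0.66, where 33.2% of all tested genes were higher and 11.6% lower. DUSP1, a nuclear phosphatase induced by stress and mitogens, averaged 47.3 ± 2.7 TPM in Lat-M1 and 26.0 ± 0.245 TPM in PA (SD, n = 2 and 3; log2 fold change 0.84, limma adjusted p = 3.64e-05). DUSP10, which acts mainly on JNK and p38, averaged 23.4 ± 2.29 TPM in Lat-M1 and 9.0 ± 0.68 TPM in PA (1.28, limma adjusted p = 4.07e-05), and DUSP8 and DUSP22, which act in JNK and p38 signalling, rose by 1.5 and 0.82. In Lat-M2 against PA, where 12.7% of all tested genes were higher and 2.24% lower, this list had 0 higher and 3 lower, among them DUSP14 (28.4 ± 0.679 TPM in Lat-M2 and 36.8 ± 1.96 TPM in PA, limma adjusted p = 0.0154), DUSP16 (39.6 ± 4.45 and 53.3 ± 1.67 TPM, limma adjusted p = 0.0201) and DUSP1. Lat-M2 against Lat-M1 had 0 higher and 7 lower, with a median of -0.57, beside 16% of all tested genes higher and 20.1% lower. Of the member phosphatases in that comparison, DUSP6 was higher (0.54), DUSP5 was not called (0.053), and DUSP4, tested only without the minimum level, was lower (-0.51). Scaled counts were 5 higher and 2 lower in Lat-M1 against PA, beside 24% and 23% of all tested genes. They were 0 and 3 in Lat-M2 against PA (7.47% and 8.41%), and 0 and 8 in Lat-M2 against Lat-M1 (21.6% and 22.6%).

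Of 26 tested genes from receptor to ERK and its kinase targets, 11 were higher and 4 lower in Lat-M1 than in PA, with a median of 0.15, beside 33.2% higher, 11.6% lower and a median of 0.16 over all tested genes. MAP2K1, which encodes the ERK kinase MEK1, averaged 64.8 ± 0.631 TPM in Lat-M1 and 37.4 ± 1.41 TPM in PA (log2 fold change 0.78, limma adjusted p = 0.000405). SHC1, an adaptor of receptor kinases, rose by 0.45 and LAMTOR3, a scaffold of MEK and ERK, by 0.40. KSR1, a scaffold of RAF and MEK, was lower, at 4.17 ± 0.0817 TPM in Lat-M1 and 7.6 ± 0.511 TPM in PA (-0.73, limma adjusted p = 0.000391). Lat-M2 had 2 higher and 0 lower than PA, beside 12.7% and 2.24% of all tested genes, among them PTPN11, the phosphatase SHP2 that promotes RAS activation (148 ± 21.1 TPM in Lat-M2 and 112 ± 2.98 TPM in PA, limma adjusted p = 0.0283). Scaled counts were 7 higher and 8 lower in Lat-M1 against PA, beside 24% and 23% of all tested genes. In Lat-M2 against PA they were 1 and 3, beside 7.47% and 8.41%.

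Inhibitors of the cascade outside the members were higher in Lat-M1 than in PA for 7 of 12 tested genes and lower for 0 (5 and 1 scaled), with a median of 0.34, beside 33.2% higher and 11.6% lower over all tested genes (24% and 23% scaled). PEBP1, the RAF kinase inhibitor protein, averaged 328 ± 9.1 TPM in Lat-M1 and 179 ± 2.95 TPM in PA (log2 fold change 0.87, limma adjusted p = 3.59e-05). PEA15, which holds ERK in the cytoplasm, rose by 0.70, LZTR1, which directs RAS proteins to degradation, by 0.64, and RASA1, a GTPase-activating protein for RAS, by 0.43. Lat-M2 had 4 higher and 0 lower than PA (4 and 1 scaled), beside 12.7% and 2.24% of all tested genes (7.47% and 8.41% scaled). Among the 4 were PEBP1 (233 ± 15.8 TPM in Lat-M2, limma adjusted p = 0.0107) and ERRFI1, an inhibitor of EGFR (27.4 ± 1.59 TPM in Lat-M2 and 21.1 ± 1.18 TPM in PA, limma adjusted p = 0.0186). SPRED3, SPRY1 and IL17RD were listed below the minimum level and were not tested.

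Further ERK output genes moved both ways. In Lat-M1 against PA 8 of 16 were higher and 3 lower (6 and 4 scaled), beside 33.2% and 11.6% of all tested genes (24% and 23% scaled). HBEGF, an EGFR ligand, averaged 51.8 ± 0.332 TPM in Lat-M1 and 13.5 ± 0.915 TPM in PA (log2 fold change 1.87, limma adjusted p = 3.41e-06), and IER3, an early response gene, 146 ± 8.41 and 43.3 ± 2.52 TPM (1.73, limma adjusted p = 6.33e-06). LIF, a cytokine, rose by 0.86. ETV1, the third PEA3 factor, was lower, unlike ETV4 and ETV5, at 0.888 ± 0.0458 TPM in Lat-M1 and 4.25 ± 0.367 TPM in PA (-1.47, limma adjusted p = 5.6e-05). Lat-M2 had 3 higher and 3 lower than PA (3 and 5 scaled), beside 12.7% and 2.24% of all tested genes (7.47% and 8.41% scaled). HMGA2, a chromatin protein, averaged 20.7 ± 0.091 TPM in Lat-M2 and 12.6 ± 0.628 TPM in PA (0.67, limma adjusted p = 0.0022). HBEGF was lower, at 8.59 ± 0.671 TPM in Lat-M2 and 13.5 TPM in PA (-0.59, limma adjusted p = 0.00569).

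Transcription factors that act with or against ERK were higher in Lat-M1 than in PA for 9 of 13 and lower for 0 (6 and 1 scaled), with a median of 0.41, beside 33.2% higher and 11.6% lower over all tested genes (24% and 23% scaled). SRF, the serum response factor, averaged 67.3 ± 2.77 TPM in Lat-M1 and 22.0 ± 0.524 TPM in PA (log2 fold change 1.57, limma adjusted p = 4.11e-06). ATXN1, a partner of CIC, and ETV6, an ETS repressor, rose by 1.03 and 1.02, and ELK3, an SRF cofactor, by 0.63. CIC itself was not called in Lat-M1 against PA (0.42 ± 0.17, limma adjusted p = 0.0928) or in Lat-M2 against PA (0.27 ± 0.17, limma adjusted p = 0.326). Lat-M2 had 4 higher and 1 lower than PA (3 and 2 scaled), beside 12.7% and 2.24% of all tested genes (7.47% and 8.41% scaled). ELK4, another SRF cofactor, was higher (0.50, limma adjusted p = 0.0124) and ETS2 lower (-0.40, limma adjusted p = 0.00975).

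**Figure D4:**
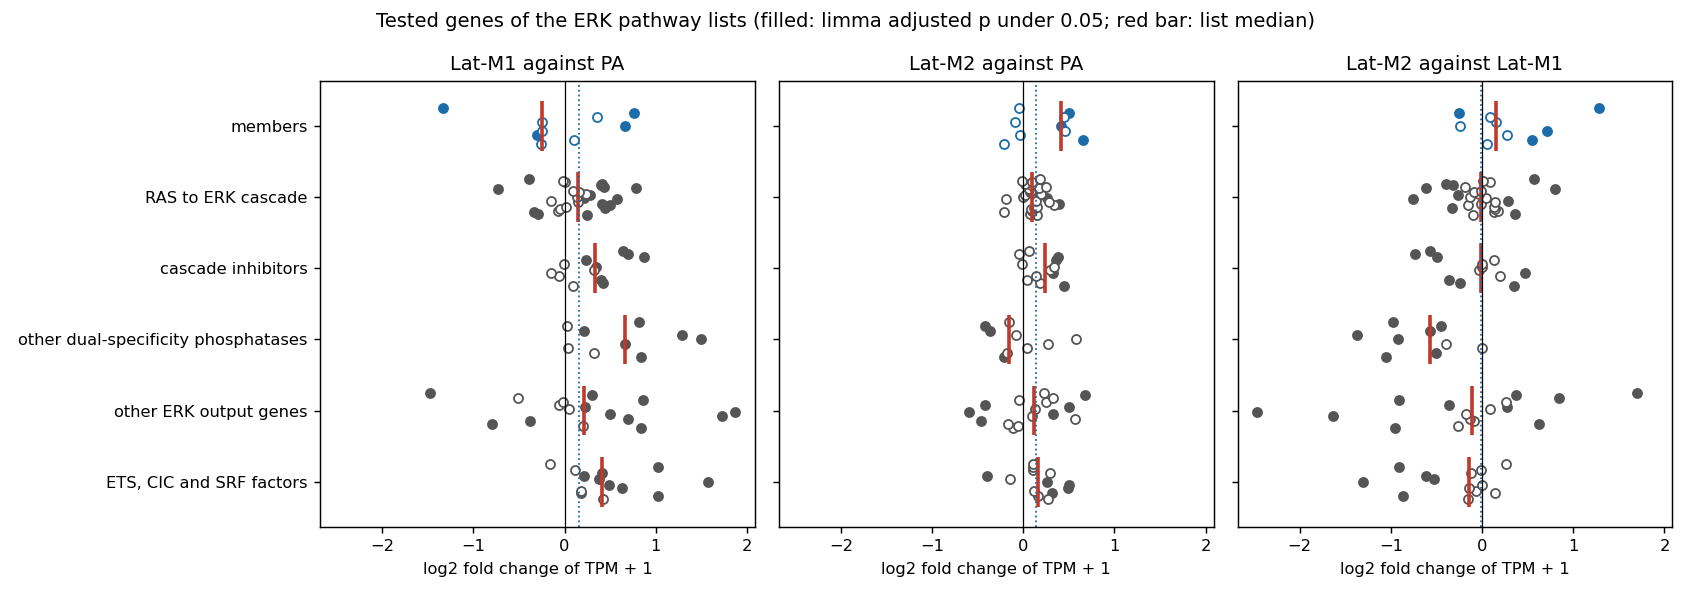
Log2 fold changes of TPM + 1 (horizontal axes) of the tested genes of the members and of 5 pathway lists in each comparison; filled points passed the limma test, red bars are list medians and the dotted line is the median of all tested genes. The other dual-specificity phosphatases have a median of 0.66 in Lat-M1 against PA and -0.57 in Lat-M2 against Lat-M1, while the members' points spread to both sides.

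The genes whose profile over the 7 libraries lay closest to that of PHLDA1, by Euclidean distance of log2(TPM + 1) from the PA mean, were C9orf66 (distance 0.142), PAG1 (0.158) and MAP3K5 (0.165). C9orf66 averaged 1.83 TPM in Lat-M2, 0.174 TPM in Lat-M1 and 1.98 TPM in PA, and PAG1 averaged 2.79, 0.504 and 2.78 TPM. At such levels the added 1 TPM understates changes, and by mean TPM both genes fell by a larger fold in Lat-M1 than PHLDA1. MAP3K5, a kinase of the JNK and p38 pathways, averaged 45.1 TPM in Lat-M2, 16.6 TPM in Lat-M1 and 43.7 TPM in PA. For DUSP6, the member with the largest change in Lat-M2 against PA on the log2(TPM + 1) scale (by fold of mean TPM, ETV4 was larger, at 1.77 against 1.72), they were ASS1 (0.158), OAS1 (0.164) and PRTG (0.186). ASS1, an enzyme of arginine synthesis, averaged 56.9 TPM in Lat-M2, 40.7 TPM in Lat-M1 and 36.8 TPM in PA.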

How the data were processed

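RNA sequencing libraries of 769-P cells were analysed from gene tables. Per the submitters' processing notes, TopHat2 2.2.4 and the genome hg19 were used; the quantifier, annotation, strand setting and filters are not given in the sources used here. The values deposited by the authors were read as TPM because they are not whole numbers and add up to 1e+06 in each library.

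From these, log2(TPM + 1) was tested for 16724 genes, those averaging 1 TPM or more, with limma 3.58.1 in R 4.3.3 (trend and robust options, 2-sided, 1 fit of 3 groups), and Benjamini-Hochberg adjustment over all of them at 0.05. A log2 fold change is on the log2(TPM + 1) scale and understates changes of low genes. The function was checked on simulated data. Alternatives were a pseudocount of 0.1, no minimum, a minimum of 5 TPM, median ratio scaling, leaving out 4 structural RNAs, the replicate number as a block, no robust option, 2 groups at a time and leaving out each library.

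The members, lists and tests were chosen with earlier results of these data known. All members are named; of other lists, up to 4 called genes with the smallest p in Lat-M1 against PA and up to 2 in Lat-M2 against PA, plus, chosen after their values were seen, DUSP1 in Lat-M2, CIC and the untested SPRED3, SPRY1 and IL17RD. 1 gene that this rule names is not reported here. Overlaps come from GENCODE v29 and sequences from RefSeq, both on GRCh38, so no other positions are given; windows on chromosome 8 were not used.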

Additional observations from a re-analysis of the deposited data

Results flagged for a closer look

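For 4 of the 9 tested members the effect of Lat-M2 and that of Lat-M1 differed by the direct test of Lat-M2 against Lat-M1 in limma. That test called 36% of all 16724 tested genes. PHLDA1 (log2 fold change 1.28), SPRY4 (0.71) and DUSP6 (0.54) were higher in Lat-M2, and ETV5 was lower (-0.26), a call that 12 of 15 alternatives ended. The PHLDA1 difference was the only one of these 4 past the threshold in all 15 alternatives. Outliers within groups were not looked for, since no group has 4 libraries.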

How the results depend on the processing

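Whether equal library numbers mark a pairing is unknown. Deviations of same-numbered libraries from their group means correlated at -0.082 to 0.0312. Since the 2 deviations of a Lat-M group mirror each other, these values cannot exclude a shared culture or batch. With the replicate block 943 genes passed in Lat-M2 against PA, against 2494 without it, and members' calls lost were SPRY2 in Lat-M1 against PA (limma adjusted p = 0.145), SPRED1 in Lat-M2 against PA (0.0515) and ETV5 in Lat-M2 against Lat-M1 (0.126). Lat-M2 against PA had 1529 genes without the minimum level and 1518 when only its 2 groups were fitted. With structural RNAs left out, 7 members passed in Lat-M1 against PA, against 4, SPRY4, DUSP5 and SPRED2 being added as lower; over all genes that setting gave 3745 higher and 4047 lower of 17755, against 5558 and 1941 of 16724. Leaving out 1 library gave 4721 to 7925 genes and 3 to 4 members in Lat-M1 against PA, 506 to 3191 genes and 0 to 3 members in Lat-M2 against PA, and 3838 to 5830 genes and 2 to 4 members in Lat-M2 against Lat-M1; where 1 library was left in a group, it was taken to vary like the others. Members that changed sign were without a call in either setting: DUSP6 in Lat-M1 against PA (-0.036 scaled, -0.055 with structural RNAs left out, -0.0082 to 0.23 leaving out 1 library), and in Lat-M2 against PA SPRY2 (-0.11 to 0.052), SPRED2 (-0.24 to 0.046) and PHLDA1 (-0.17 to 0.075), where the positive values came without Lat-M2 replicate 2 or, for SPRY2, also without PA replicate 1 (0.00016). Of 396 values of members under alternatives, 351 kept direction and call. The cause was not tested.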
